A study of Mus musculus with 2 samples.

Results

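Axon guidance genes of the Eph, ephrin, Slit, Robo, netrin, netrin-G and UNC5 families, together with Dcc and Neo1, were examined in the retina of a Sox11 knockout mouse embryo and a wild-type embryo. The knockout carried the genotype Sox11-/-, the wild type was a littermate, and the strain was C57BL/6; retinas were taken at embryonic day 18. RNA from a single retina of each genotype was measured on its own Affymetrix array after amplification and biotin labelling. The labels name neither the deleted part of Sox11 nor any treatment, and the sample is whole retina, so no value can be assigned to a cell type. Sox11 encodes a transcription factor of differentiating neurons. Its own 6 probe sets ran from -3.64 to 1.08 in log2 ratio between knockout and wild type, median -1.20, and the one with the highest mean read 252.4 in the knockout and 3206 in the wild type, so they check the labels only in part.

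The genes were matched by symbol alone, with no measured value in the rule. The families themselves were chosen with earlier results of these data known. Of 18193 genes with at least 1 probe set annotated to a single gene symbol, 40 matched, through 84 probe sets. Each gene was represented by the probe set with the highest mean intensity of the 2 arrays. Ephb2, which also fits the families, was not analysed here. An intensity of 18.6, the median of all values, served as a low-value filter: 31 of the 40 genes reached it on at least 1 array, and 28 did so on both. With 1 array per genotype there is no replicate, error or test, and each value compares those 2 arrays only. The difference is given as a log2 ratio, the knockout value minus the wild-type value of log2(intensity + 5), which understates the change of dim genes. In whole retina, fewer cells of a type and less RNA per cell cannot be told apart.

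These families steer growing axons. Netrins attract axons through DCC and repel them when UNC5 proteins take part, and in the eye netrin-1 and DCC are known for bringing ganglion cell axons out through the optic disc. Slits repel axons through Robo receptors and shape the paths of ganglion cell axons within the retina and at the optic chiasm. Ephrins and Eph receptors sit on opposing cells; the A class maps the nasal-temporal axis of the retina onto its targets, and the B class takes part in dorsal-ventral mapping and, through EphB1, in the choice of axons to stay on the same side of the brain.

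By the highest probe set of each gene, those furthest apart were receptors with more signal in the knockout. The rest lay on either side of level. Calls of 1.5-fold and 2-fold are made on the log2(intensity + 5) scale throughout. No gene past the filter reached a 2-fold difference; over all 11553 genes past the filter, 0.961% were 2-fold or more higher in the knockout and 0.407% were 2-fold or more lower. At 1.5-fold, Dcc, Unc5c and Robo2 were higher, 3 of 31 (9.68%), against 3.81% of all genes. None of the 31 was at least 1.5-fold lower, against 2.17% of all genes. The median log2 ratio was 0.01 over the 31 genes and -0.01 over all genes, with 16 guidance genes (51.6%) above 0 and 15 below. Over all genes past the filter, 47.7% were above 0, and 47.1% of those at or above it on both arrays. Every count above 0 given below is to be read beside these shares. Among the 28 genes at or above the filter on both arrays, 2 were at least 1.5-fold higher (7.14%) and none was lower, against 2.47% and 1.47% of all genes measured that way. Those 28 had a median of -0.003.

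**Figure D1:**
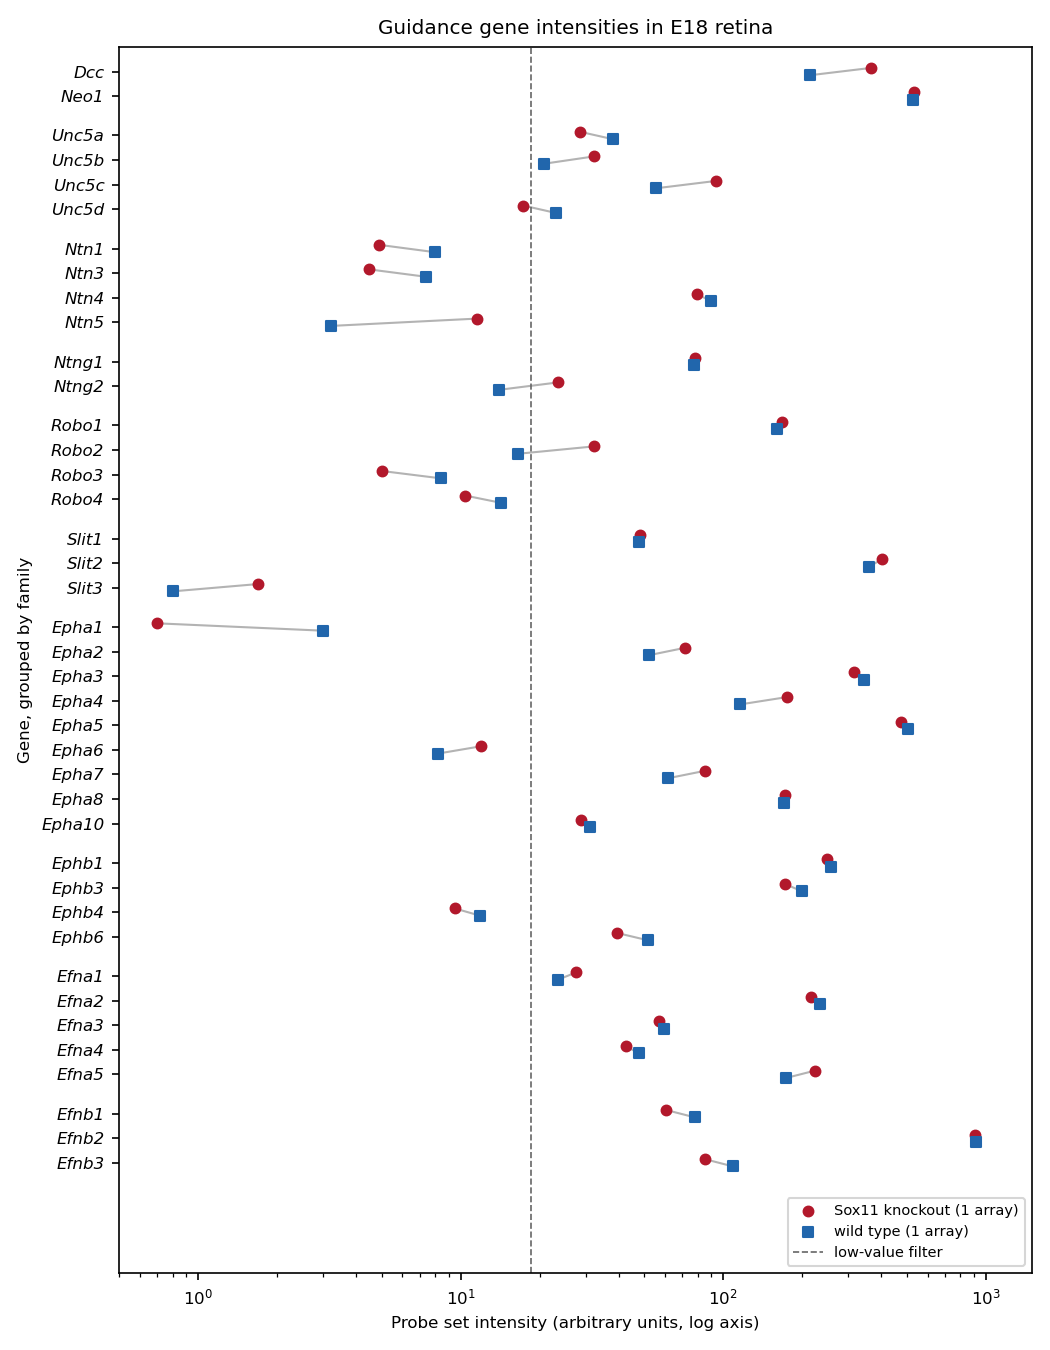
Probe set intensity (arbitrary units, log axis) of the 40 guidance genes on the Sox11 knockout array (red circles) and the wild-type array (blue squares), with the low-value filter of 18.6 as a dashed line. The widest gaps among genes with both points right of the filter are those of Dcc, Unc5c and Unc5b, each with the knockout point on the right, and 9 genes lie wholly left of the line.

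Among the netrin receptors, Dcc and Unc5c had more signal in the knockout on every probe set. Dcc, the receptor through which netrin-1 attracts axons, read 366.1 in the knockout and 213.7 in the wild type, a 1.71-fold difference and a log2 ratio of 0.76. Its other probe sets ran the same way, with 187.9 in the knockout against 94.5 in the wild type (0.96) and 19.8 against 11.7 (0.57). The last of these passed the filter only by its knockout value, which fixes its direction. Dcc ranked 225 among the 11553 genes ordered from the highest ratio. When the genes were split into 4 equal bands of mean level, the central 95% of ratios in its band ran from -0.45 to 0.47, and Dcc lay outside it. Neo1, which encodes neogenin, the relative of DCC that also binds repulsive guidance molecules, read 533.0 in the knockout and 527.1 in the wild type, a log2 ratio of 0.02. The other 2 Neo1 probe sets past the filter gave 0.29 and -0.17.

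The 4 UNC5 receptors, which turn the response to netrin into repulsion, divided evenly in sign. Unc5c read 93.8 in the knockout and 55.4 in the wild type, a log2 ratio of 0.71, and its other probe set read 71.4 and 52.6, a ratio of 0.41. Unc5c also lay outside the central 95% of its level band (-0.50 to 0.59), and it and Dcc were the only 2 of the 31 genes to do so (6.45%), where 5.05% of all genes lie outside by construction. Taking the median of both Unc5c probe sets gave 0.56, short of 1.5-fold. Unc5b read 32.3 in the knockout and 20.8 in the wild type, a log2 ratio of 0.53, short of 1.5-fold on this scale. Unc5a and Unc5d had lower values in the knockout: Unc5a read 28.5 in the knockout and 38.0 in the wild type (-0.36). Unc5d read 17.3 in the knockout and 23.0 in the wild type, at least 1.24-fold lower when the knockout value is set to the filter. Unc5d passed only by its wild-type value, which fixes its direction in the even split. All of these dim values lay within the wide central range of their band, -0.81 to 1.12.

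Sox11 is a DNA-binding factor; the promoters of 2 paralogous netrin receptors, Unc5c with both probe sets higher and Unc5b with a SOX-type motif, are shown from 250 bases before to 50 after the annotated start. The sequences are from RefSeq on GRCm38.p6, 5′ to 3′ on the gene's strand, Unc5c at chr3:141465314-141465613 on the plus strand and Unc5b at chr10:60831532-60831831 on the minus strand. Capitals mark the core SOX motifs ACAAAG and ACAATG, searched on both strands (CTTTGT and CATTGT); the motifs do not overlap each other here.
Unc5c: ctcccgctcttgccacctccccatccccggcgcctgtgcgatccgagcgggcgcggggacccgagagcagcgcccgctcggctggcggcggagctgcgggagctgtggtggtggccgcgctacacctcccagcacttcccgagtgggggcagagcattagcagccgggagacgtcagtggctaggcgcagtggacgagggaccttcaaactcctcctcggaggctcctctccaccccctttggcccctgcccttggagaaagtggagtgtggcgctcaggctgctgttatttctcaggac
Unc5b: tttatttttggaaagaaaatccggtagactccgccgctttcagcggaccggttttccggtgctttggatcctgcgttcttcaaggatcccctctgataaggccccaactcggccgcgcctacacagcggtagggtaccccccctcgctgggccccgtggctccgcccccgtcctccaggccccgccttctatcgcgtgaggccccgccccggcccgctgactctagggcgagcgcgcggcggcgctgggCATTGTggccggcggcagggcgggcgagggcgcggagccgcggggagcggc

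The Unc5c window held no match and the Unc5b window held 1, starting at base 250. Promoters were listed for 35 of the 40 genes, 40 windows in all, and 5 windows (12.5%) held a match: those of Efna2, Efna4, Ephb1, Ntn4 and Unc5b. The share was 28.6% of all 32851 windows in the table and 19.6% of the windows of genes past the filter. The guidance gene windows had a median GC content of 64.5%, against 52.7% over all windows and 61.3% for genes past the filter; the part of base composition in the lower share was not tested. A match is only a run of letters. None of the 5 genes with one was at least 1.5-fold apart on the log2(intensity + 5) scale. Over all genes past the filter, 3.81% were at least 1.5-fold higher and 2.17% lower, so none among 5 says little. On that scale Unc5b had 0.53, and the plain ratio of its intensities was 1.55.

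The netrins themselves gave little signal in either retina. Ntn4, a netrin of basement membranes, was the only 1 of 4 netrin genes past the filter, at 79.4 in the knockout and 90.2 in the wild type (-0.17). Its second probe set read 13.6 in the knockout and 22 in the wild type (-0.54), and passed only by its wild-type value. Ntn1, the netrin of the optic disc, read 4.9 in the knockout and 8.0 in the wild type, below the filter on both of its probe sets, so neither a level nor a difference can be given. Ntn3 and Ntn5 were also below the filter, with no value above 11.6.

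Netrin-G1 and netrin-G2 are membrane-anchored relatives of the netrins that bind netrin-G ligands and not DCC. Ntng1 was level at 78.0 in the knockout and 77.5 in the wild type (0.01). A dimmer Ntng1 probe set nevertheless read 31.0 in the knockout and 17.5 in the wild type (0.68), passing only by its knockout value. Another gave -0.03. Ntng2 read 23.4 in the knockout and 14.0 in the wild type, at least 1.26-fold higher. It passed only by its knockout value, which fixes its direction.

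Of the Robo receptors, Robo1 was level and Robo2 was not. Robo2, the main Slit receptor of ganglion cell axons, read 32.3 in the knockout and 16.6 in the wild type, at least 1.74-fold higher, with a log2 ratio of 0.79. Robo2 had 1 probe set, passed the filter only by its knockout value and lay within the central range of its dim band (-0.81 to 1.12). With a pseudocount of 18.6 in place of 5 its ratio was 0.53, short of 1.5-fold. Robo1 read 167.6 in the knockout and 160.7 in the wild type (0.06). Robo3, a receptor of commissural axons, and Robo4, the Robo of endothelial cells, stayed below the filter on both arrays.

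The Slit ligands showed a probe set dependence. Slit2, which encodes a repellent of ganglion cell axons, read 401.8 in the knockout and 358.1 in the wild type on its highest probe set, a log2 ratio of 0.16. The other 2 Slit2 probe sets read 42.9 and 40.3 in the knockout and 24.6 and 23.9 in the wild type, with ratios of 0.69 and 0.65. All 3 thus had more signal in the knockout, 2 of them by over 1.5-fold, and the median of the 3 was 0.65. Slit1 was level at 48.3 in the knockout and 47.6 in the wild type (0.02), and Slit3 read 1.7 and 0.8, below the filter. All 4 Slit and Robo genes past the filter had a ratio above 0, with a median of 0.11, although Robo2 is counted only through its knockout value.

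**Figure D2:**
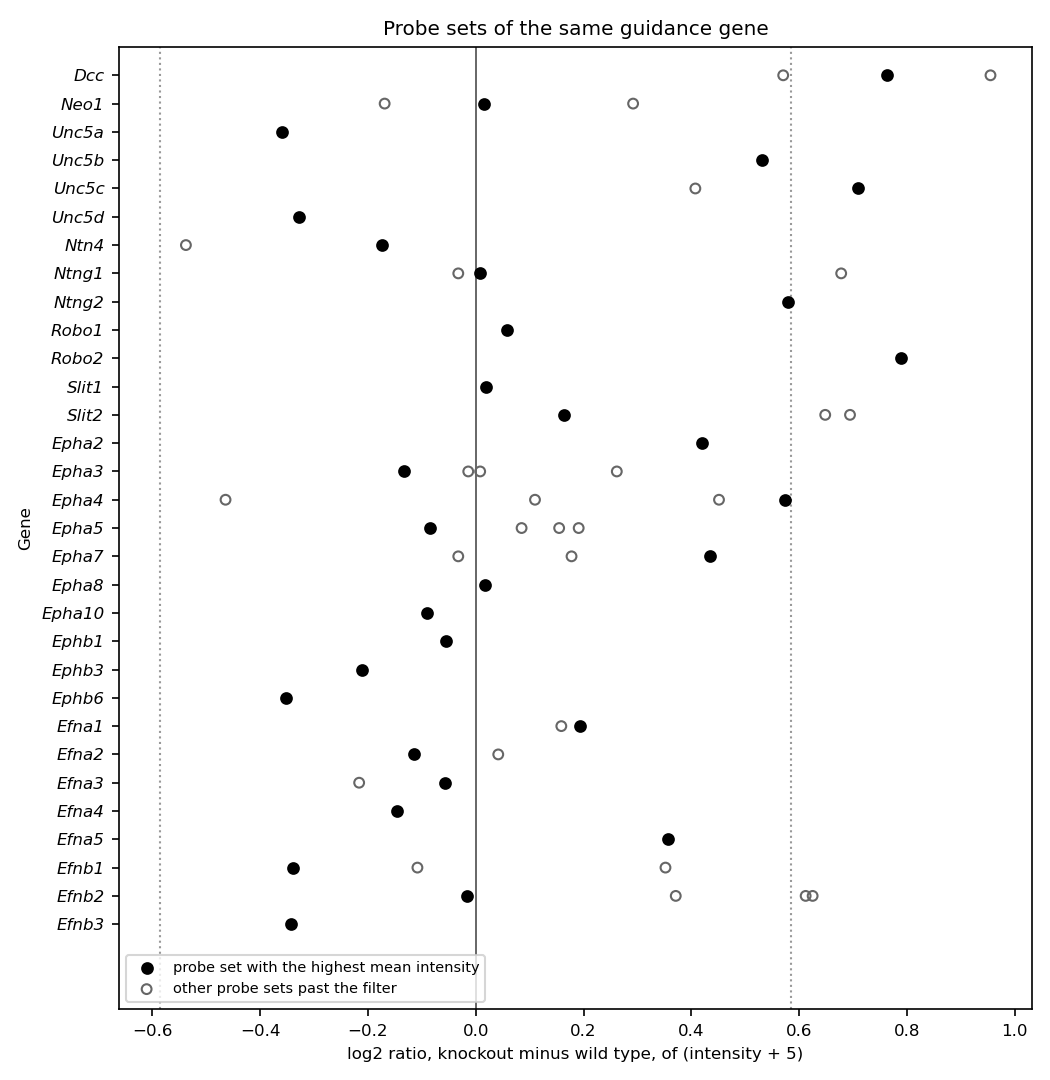
Log2 ratio, knockout minus wild type, of every probe set past the filter for the 31 measurable guidance genes; filled points are the probe sets with the highest mean intensity, open points the others, and dotted lines mark 1.5-fold. The 3 Dcc, 3 Slit2 and 2 Unc5c points lie right of 0, whereas those of Epha4 run from -0.46 to 0.57 and those of Efnb2 from -0.02 to 0.63. The dimmest Dcc probe set passed the filter only by its knockout value.

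The EphA receptors, whose graded levels across the retina order ganglion cell axons along the nasal-temporal axis, had a median ratio of 0.02 over 7 genes. Epha5, one of the graded receptors, read 476.4 in the knockout and 505.8 in the wild type (-0.09), and its other 3 probe sets gave 0.09, 0.15 and 0.19. Epha3 read 314.4 in the knockout and 345.1 in the wild type (-0.13), with its other 3 probe sets at -0.01, 0.01 and 0.26. Both genes thus had small ratios of either sign. Epha8 read 172.0 in the knockout and 169.8 in the wild type (0.02), and Epha10 read 28.8 and 31.0 (-0.09).

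The other 3 EphA genes had higher values in the knockout. Epha4, which binds ephrins of both classes, read 175.2 in the knockout and 116.0 in the wild type, a log2 ratio of 0.57. Its 4 probe sets past the filter did not share a direction: the others gave 0.11, 0.45 and -0.46, and their median with the first was 0.28. The probe set at 0.45 passed only by its knockout value. Epha7 read 85.4 in the knockout and 61.9 in the wild type (0.43), with other probe sets at 0.18 and -0.03. Epha2, an EphA receptor found in epithelia and the lens as well as neural tissue, read 71.3 in the knockout and 52.0 in the wild type (0.42) on its 1 probe set. Epha1 and Epha6 were below the filter, with no value above 12.

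All 3 EphB receptors past the filter had lower values in the knockout, none by 1.5-fold. Ephb1, the receptor of ipsilateral axons, was nearly level at 247.9 in the knockout and 257.6 in the wild type (-0.05). Ephb3 read 171.4 in the knockout and 199.3 in the wild type (-0.21). Ephb6, whose kinase domain is inactive, read 39.5 in the knockout and 51.8 in the wild type (-0.35). Each had a single probe set, and Ephb4, known from venous endothelium, was below the filter at 9.5 and 11.9. All 3 lay within the central 95% of their bands.

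Ephrin-A ligands, which are anchored to the membrane by a lipid, were near level apart from Efna5. Efna5, a nasal-temporal mapping ligand, read 223.7 in the knockout and 173.5 in the wild type, a log2 ratio of 0.36. Efna2, which acts with it in mapping, read 215.8 in the knockout and 233.9 in the wild type (-0.11), with its second probe set at 0.04. Efna3 read 56.9 in the knockout and 59.4 in the wild type (-0.06), and Efna4 read 42.6 and 47.7 (-0.15). Efna1 read 27.6 in the knockout and 23.5 in the wild type (0.19), with both probe sets above 0, the dimmer passing only by its knockout value. The median of the 5 was -0.06.

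Ephrin-B ligands, which span the membrane and can signal into their own cell, gave ratios that turned on the probe set. Efnb2, enriched dorsally in the retina and present at the optic chiasm, read 908.7 in the knockout and 918.5 in the wild type (-0.02) on its highest probe set. Its other 3 probe sets read 422.2, 145.1 and 84.3 in the knockout and 325.3, 93.2 and 52.9 in the wild type, with ratios of 0.37, 0.61 and 0.63. Taking the median of the 4 gave 0.49 for the gene. Efnb1, which is X-linked, read 60.5 in the knockout and 77.9 in the wild type (-0.34), with its other probe sets at -0.11 and 0.35. With only its probe set specific to a single transcript (no s, x or a in the suffix), its ratio was 0.35. Efnb3 had 1 probe set, at 85.0 in the knockout and 109.2 in the wild type (-0.34). The family median of -0.34 was -0.02 under the same restriction.

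**Figure D3:**
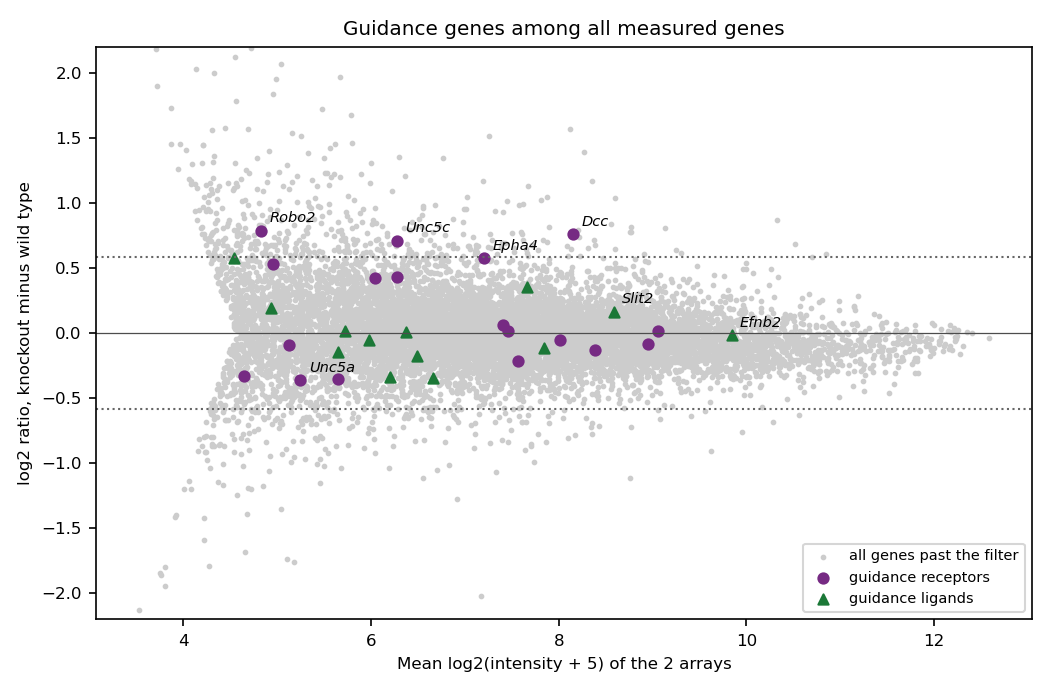
Log2 ratio, knockout minus wild type, against the mean log2(intensity + 5) of the 2 arrays for all 11553 genes past the filter (grey), guidance receptors (purple circles) and guidance ligands (green triangles); dotted lines mark 1.5-fold, and 12 genes lie beyond the vertical axis. Dcc and Unc5c lie near the upper edge of the grey cloud at their level, and Robo2 among many dim genes of similar ratio.

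By role, the 18 receptor genes had a median ratio of 0.02, with 10 above 0, and the 13 ligand genes had a median of -0.02, with 6 above 0. The 3 genes at least 1.5-fold apart were all receptors, but this depended on the processing. With the median over probe sets the 3 were Dcc, Robo2 and the ligand Slit2. With no pseudocount the ligand Ntng2 also reached 1.5-fold, although its wild-type value lay below the filter. The 18 Eph and ephrin genes had a median of -0.07, with 6 above 0 and 12 below, where 47.7% of all genes were above 0. The 9 netrin, netrin-G and netrin receptor genes had a median of 0.02, with 6 above 0. In these counts Ntng2 and Robo2 enter only through their knockout values, and Unc5d only through its wild-type value.

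Fewer guidance genes than genes in general lay close to level, without a shared direction. Ratios within 1.2-fold were found for 17 of 31 guidance genes (54.8%) and for 73.0% of all genes. The share depends on level: in the dimmest band it was 5 of 12 guidance genes against 50.5% of all genes, and in the next 2 of 7 against 73.6%. In the 2 brighter bands it was 6 of 8 against 81.3% and 4 of 4 against 86.6%. The SD of the ratios was 0.35 over the guidance genes and 0.33 over all genes, the second of which includes ratios as far out as 5.74.

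Of the 15 guidance genes with several probe sets past the filter, 6 had all of them on the same side of 0: Dcc, Unc5c, Slit2 and Efna1 above, and Ntn4 and Efna3 below. The other 9 had probe sets on both sides. In Dcc, Efna1 and Ntn4, the dimmest probe set counted reached the filter on a single array only, which fixes its direction. Within a gene, ratios of different probe sets had a pooled SD of 0.28 over these 15 and 0.26 over all 5612 such genes. Many of the gene ratios above are no larger than that SD. Of the genes past the filter, the nearest to it were Unc5d, Ntng2 and Efna1, with higher values of 23.0, 23.4 and 27.6. The nearest below were Robo4, Epha6 and Ephb4, at 14.3, 12 and 11.9.

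Genes that act with these families inside and around the growth cone were mostly level. Of 28 measurable partners and effectors of Eph signalling, 2 were at least 1.5-fold higher and none lower, against 3.81% and 2.17% of all genes, with a median of 0.03. The 2 were guanine nucleotide exchange factors: Ngef, or ephexin, which couples EphA receptors to RhoA, read 67.5 in the knockout and 39.8 in the wild type (0.69). Kalrn, kalirin, which acts downstream of EphB receptors, read 123.5 in the knockout and 75.4 in the wild type (0.68). The exchange factor Vav2 and the adaptor Dok1 had ratios of 0.43 and 0.52.

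None of 22 partners and effectors of Slit and Robo was 1.5-fold apart, against 3.81% of all genes higher and 2.17% lower. The median of the 22 was -0.02. The heparan sulfate enzyme Hs6st1 and the actin regulator Vasp had the largest ratios, 0.41 and 0.40, and the co-receptor Sdc3 and the actin regulator Evl had -0.28 and -0.27. None of 19 partners of netrin, DCC, UNC5 and neogenin was 1.5-fold apart either, beside the same 3.81% and 2.17%, with a median of 0.06. Lists of 22 and 19 genes can hold none at such shares. Rgma, a repulsive ligand of neogenin, read 25.6 in the knockout and 16.3 in the wild type, at least 1.38-fold higher. Bmpr1b, a BMP receptor, read 108.8 in the knockout and 76.4 in the wild type (0.48). Dscam, a netrin co-receptor, had a ratio of -0.27, and the ubiquitin ligase Siah2 had 0.26.

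Of 34 measurable other cues, receptors and adhesion molecules of retinal axons, 3 were at least 1.5-fold higher and none lower, with a median of 0.05; the shares over all genes were 3.81% and 2.17%. Cntn2, an axonal adhesion molecule, read 44.9 in the knockout and 16.1 in the wild type, at least 2.41-fold higher, and passed the filter only by its knockout value. Plxnd1, a semaphorin receptor that endothelial cells also carry, read 87.3 in the knockout and 47.2 in the wild type (0.82). Nfasc, neurofascin, had a ratio of 0.61 and Chl1, an L1-family adhesion molecule, -0.55. Of 19 factors that pattern the axes of the retina or the midline choice, 3 were at least 1.5-fold higher and none was lower, beside the same 3.81% and 2.17% of all genes, and the median was 0.05. Bambi, a BMP pseudoreceptor, read 216.9 in the knockout and 110.5 in the wild type (0.94). The retinaldehyde dehydrogenase Aldh1a1, a dorsal gene, had a ratio of 0.68, its ventral counterpart Aldh1a3 had 0.54, and Isl2, a factor of contralateral ganglion cells, had 0.61. Dorsal and ventral enzymes thus differed in the same direction.

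**Figure D4:**
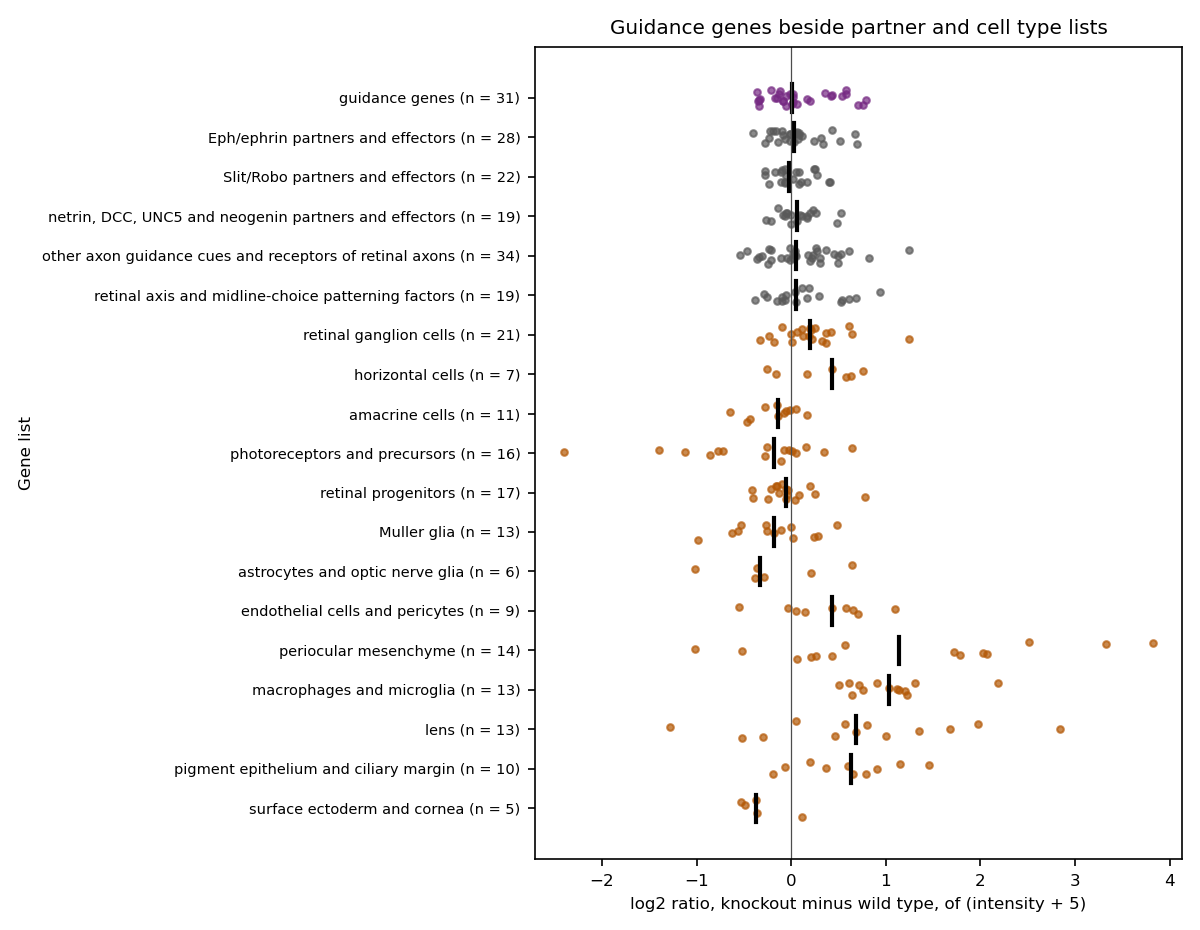
Log2 ratio, knockout minus wild type, of each gene past the filter in the guidance families (purple), the partner and patterning lists (grey) and the cell type marker lists (orange); black bars are medians and n is the number of genes. The guidance genes lie between -0.36 and 0.79 around a median of 0.01, the macrophage list has a median of 1.04, and the mesenchyme median of 1.14 includes 8 genes that reached the filter in the knockout alone.

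Cell type markers differed between the 2 arrays as well, and several of the guidance families are active in more than 1 of these types. All 17 measured progenitor markers and 20 of 21 ganglion cell markers were above the filter on both arrays. Over all genes past the filter, 47.7% had a ratio above 0. Ganglion cell markers, from the neurons in which Dcc, Robo2 and the Ephs act on axons, had a median of 0.20 with 17 of 21 above 0; 3 of 21 were at least 1.5-fold higher, 1 of them (Cntn2) counted only through its knockout value, against 3.81% of all genes. Their summed intensity was 10781 in the knockout and 9664 in the wild type. Horizontal cell markers had a median of 0.43 with 5 of 7 above 0, and 0.30 with 4 of 6 above 0 where both arrays passed. Amacrine markers had a median of -0.14 with 2 of 11 above 0, and photoreceptor markers -0.18 with 5 of 16 above 0. Of those 16 photoreceptor markers, 6 were at least 1.5-fold lower and 3 of these, Sag, Pde6b and Nrl, at least 2-fold lower. The shares over all genes were 2.17% and 0.407%, and 1 photoreceptor marker was at least 1.5-fold higher. However, 2 of the 16, Pde6b and Cngb1, passed only by their wild-type value, which fixes their direction. The 14 above the filter on both arrays had a median of -0.09 with 5 above 0. Of these 14, 4 were at least 1.5-fold lower, against 1.47% of all genes measured that way. Müller glia markers had a median of -0.18 with 4 of 13 above 0, and progenitor markers -0.06 with 5 of 17 above 0.

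Markers of tissue outside the neural retina were mixed, and several lists hold genes that reached the filter in the knockout alone, which fixes their direction. Periocular mesenchyme markers had a median of 1.14 with 12 of 14 above 0, but 8 of the 14 passed only that way. The 6 above the filter on both arrays had a median of 0.32, with 4 above 0. The summed intensity of the 17 measured was 1330 in the knockout and 858 in the wild type.

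Macrophage markers were higher in the knockout also where both arrays gave a level. Of 13 past the filter, 4 passed only by their knockout value. The other 9 were all above 0, against 47.1% of all genes at or above the filter on both arrays. Of the 9, 8 were at least 1.5-fold higher, against 2.47% of all genes measured that way. The median of the 9 was 1.04. The 16 measured genes summed to 1065 in the knockout and 524 in the wild type. Lens markers had a median of 0.68 with 10 of 13 above 0, and 0.57 with 7 of 9 above 0 where both arrays passed; their sums were 974.5 in the knockout and 735.1 in the wild type. Pigment epithelium markers had a median of 0.63 with 8 of 10 above 0, and 0.28 with 4 of 6 above 0 where both arrays passed, with sums of 569.3 in the knockout and 403.5 in the wild type.

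Endothelial and pericyte markers had a median of 0.43 over 9 genes past the filter and 0.14 over the 7 that passed on both arrays. Their summed intensity ran the other way, with 1145.3 in the knockout and 1215.5 in the wild type. The direction of the sums rests on their brightest gene, Kdr, which read 456.1 in the knockout and 673.2 in the wild type. Of 21 measured, 12 were below the filter in the knockout and 14 in the wild type. Astrocyte markers had a median of -0.33 with 2 of 6 above 0, and -0.33 with 1 of 4 above 0 where both arrays passed. Surface ectoderm markers had a median of -0.37 with 1 of 5 above 0, and none of 8 blood markers passed. The part of these cells in the ratios of Dcc, Unc5c, Robo2, Slit2 or Epha2 was not tested. The median intensity over all probe sets was 19.7 on the knockout array and 17.6 on the wild-type array. The 2 embryos also differed in sex-linked transcripts, Xist reading 922.7 in the knockout and 12.3 in the wild type. The Y-linked Eif2s3y read 4.7 in the knockout and 214 in the wild type, and Kdm5d read 3.5 and 130.4. Sex therefore differs along with genotype in every ratio given here, that of the X-linked Efnb1 included, and its part was not tested.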

How the data were processed

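Each deposited value is the linear intensity of a probe set, scaled by the authors: as read from the values, the mean after leaving out 2% of probe sets at each end was 100 on both arrays. The summarising software is not given in the sources used here. The 64 control probe sets were left out, leaving 45037, of which 34945 have 1 gene symbol in GEO's platform annotation, 932 several and 9160 none. The pseudocount of 5 and the filter of 18.6 are the 25th percentile and the median over both arrays; 11553 genes passed. No normalization between arrays was added. Genes were named by rule: every guidance gene, and at most 4 genes per other list, those with the largest ratios. Kdr was named besides, as the brightest of its list. The members and lists were chosen with earlier results of these data known. Alternatives covered scaling, pseudocount, filter, choice of probe sets and the value per gene. Python 3.11.15, pandas 2.3.3, numpy 2.4.6 and statsmodels 0.14.6 (loess) were used, and the procedure was tested on simulated data.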

Additional observations from a re-analysis of the deposited data

How the results depend on the processing

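No gene was at least 2-fold apart except with no low-value filter, where 1 was (Ntn5, whose values were 11.6 in the knockout and 3.2 in the wild type). The 3 genes at least 1.5-fold higher became 6 with no pseudocount (Epha4, Ntng2 and Unc5b joined) and 1, Dcc, with the filter at 109.4, which left 13 guidance genes; no alternative gave a gene at least 1.5-fold lower. Dcc stayed past 1.5-fold in all 10 alternatives (0.73 to 0.78). The median of all guidance genes was -0.0530 after quantile normalization and -0.0553 after loess, against 0.01, so its sign is not settled; over all genes those settings gave -0.03 each. Of 290 recomputed gene ratios, 5 moved by more than 0.26, the spread between probe sets of a gene: Neo1 and Efnb1 when s, x and a probe sets were left out, and Efnb2, Epha4 and Slit2 with the median over probe sets. No paired analysis was possible because each genotype has 1 array. The number of arrays limits the precision, and without detection calls the filter stands in for background.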
